A study of Mus musculus with 6 samples.

Results

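The lysosome is the acidic compartment in which a cell breaks down sugars, lipids and proteins that it takes up or recycles. Its lumen holds hydrolases that each cut 1 kind of bond, helped by small cofactor proteins, and its membrane holds heavily glycosylated proteins, a proton pump, channels and exporters. The factors TFEB, TFE3 and MITF of the MiT/TFE family bind E-box sequences near many of these genes and are known to raise their transcription, and monocytes, macrophages and granulocytes are known for abundant lysosomes. A set of 37 mouse genes was described here, chosen by symbol and with earlier results of these data known. It holds 24 hydrolases (11 glycosidases, 5 sulfatases, 5 lipid-cleaving enzymes and 3 proteases). The others are 3 luminal cofactor and transport proteins, 7 membrane proteins and the 3 factors. All 37 symbols were found among the 46078 genes of the count tables, and all 37 passed the filter on low counts.

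Total RNA was sequenced in 3 libraries labelled JMML, from mice with juvenile myelomonocytic leukemia, a cancer of the monocytic and granulocytic lineage of early childhood, and in 3 libraries labelled wild type (WT). Tissue, age, strain, allele and agent are not given for either group, and neither is whether each library came from its own mouse. The titles carry 6 different identifiers, of which those of JMML replicate 3 and WT replicate 3 share their first part, and their meaning is not given. The tests therefore cover the spread among these 6 libraries. Some of it may be technical, though within JMML the libraries differ in sex, as given below. Totals ranged from 91976512 to 108395459 counts in JMML and from 47096464 to 61656272 in WT. Xist counts of 54449 and 49961 in JMML replicates 1 and 2, against at most 36 in JMML replicate 3 and in WT, together with 0 counts of Y-linked genes in those 2 libraries, are those of female mice, and the other 4 libraries carried Y-linked transcripts. Identifiers end in F for these 2 libraries and in M for the other 4, so sex differs in part along with the group.

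Lysosomal genes were higher in JMML as a group, but not uniformly. In edgeR's quasi-likelihood test, adjusted by Benjamini-Hochberg over 18097 genes with a threshold of 0.05, 22 of the 37 genes were higher in JMML, where 12.4% of all tested genes were higher and 26.2% were called in either direction. None of the 37 was lower, where 13.8% of all tested genes were lower; at an unadjusted p under 0.05 the 1 lower gene was Tpp1, and DESeq2 and limma-voom also called 0 lower. The median log2 fold change over the 37 was 0.64, against −0.02 over all tested genes. JMML and WT libraries did not overlap in 24 genes that were higher and 2 that were lower, where 22.9% of all tested genes did not overlap and were higher, 24.6% did not overlap and were lower, and 47.5% did not overlap in either direction. A gene that was not called may still differ by an amount that 3 libraries a group could not resolve. Counts of each gene were high enough for counting error to be small, with the lowest single value at 470 counts for Mitf in WT replicate 1. Of the 22 calls, 14 held in each of 17 other settings of scaling, filter, test, covariate and left-out library: Gla, Gusb, Hexa, Man2b1, Manba, Neu1, Galns, Asah1, Ppt1, Psap, Npc2, Lamp1, Lamp2 and Cd68.

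**Figure D1:**
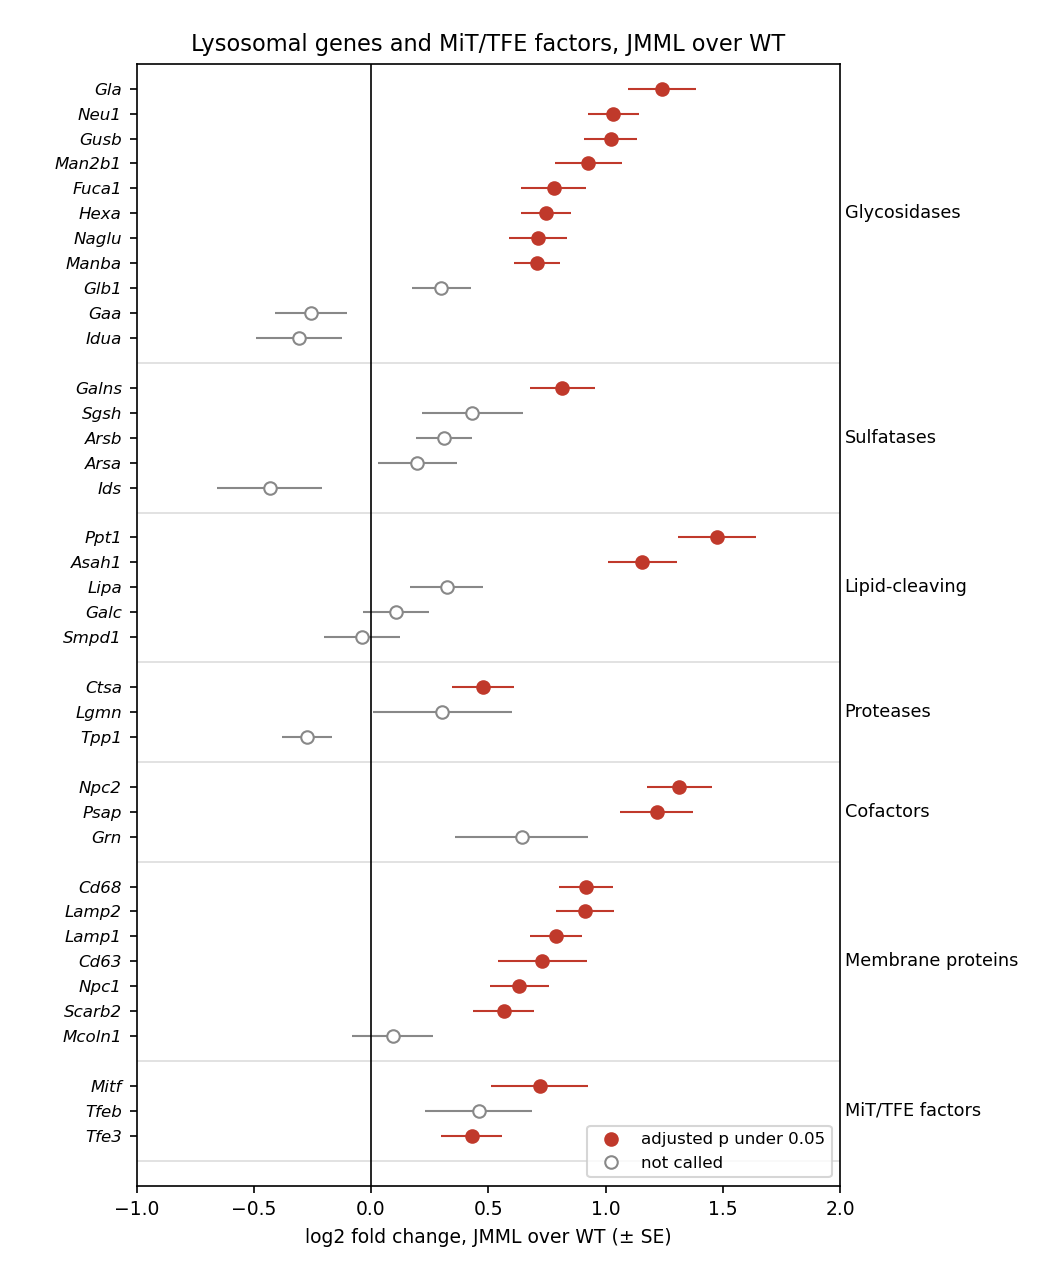
Log2 fold change of each of the 37 genes in JMML over WT with its standard error (horizontal bars), grouped by class; filled red points passed an adjusted p of 0.05 and open grey points did not. The largest estimates are those of Ppt1 at 1.47 and Npc2 at 1.32, and the lowest is that of Ids at −0.43.

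The samples are bulk RNA, in which more cells of a type and more RNA per cell cannot be told apart. Marker lists of the cells that such samples could hold moved with the groups. For comparison, 12.4% of all tested genes were higher and 13.8% lower. Monocyte markers had 6 of 10 tested genes higher and 1 lower, with a summed level of 3551 to 6414 CPM (counts scaled to library size with TMM factors) in JMML and 2483 to 2742 CPM in WT. Markers of neutrophils and their precursors had 6 of 12 higher and 0 lower (20343 to 29827 CPM in JMML, 11856 to 20377 CPM in WT), and dendritic cell markers had 5 of 7 higher and 1 lower (181 to 202 CPM in JMML, 80.7 to 99.0 CPM in WT). Osteoclast markers had 7 of 8 higher (412 to 597 CPM in JMML, 130 to 315 CPM in WT), among them the lysosomal enzymes Acp5 and Ctsk. Macrophage markers went the other way in part, with 1 of 14 higher and 5 lower (359 to 689 CPM in JMML, 614 to 927 CPM in WT). Lower were all 9 B-cell markers (10.2 to 15.4 CPM in JMML, 106 to 459 CPM in WT), all 6 T-cell markers (7.70 to 15.1 CPM in JMML, 30.2 to 42.2 CPM in WT), all 7 megakaryocyte and platelet markers (13.2 to 27.5 CPM in JMML, 239 to 771 CPM in WT) and 5 of 8 erythroid markers (389 to 1315 CPM in JMML, 1582 to 2177 CPM in WT). Among defining markers, Vsig4 of macrophages was at 0 counts in 2 JMML and 3 WT libraries, Cd209a of dendritic cells at 0 in 2 JMML libraries and Calcr of osteoclasts at 0 in 2 WT libraries. Hepatocyte markers were near 0, at 0.317 summed CPM or less in any library. The part of these cell types in the lysosomal differences was not tested.

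The E-box core CACGTG, which MiT/TFE factors are known to bind, was in the promoter windows of 10 of the 34 genes that have one, and these sequences are shown because the differences between groups can be set against them. Windows are 300 bases, from 250 before to 50 after each RefSeq start (GRCm38.p6), and a gene with several starts has several windows (42 windows for 34 genes). Galns, Asah1 and Npc1 have no entry. CACGTG reads the same on both strands. The 4 genes with 2 or more cores are printed in full on the strand of the gene, 5′ to 3′, with each core in capitals. They are the membrane glycoprotein gene Lamp1, the calcium channel gene Mcoln1, the serine carboxypeptidase gene Ctsa and the α-galactosidase gene Gla.
Lamp1 (chr8:13158911-13159210, plus strand): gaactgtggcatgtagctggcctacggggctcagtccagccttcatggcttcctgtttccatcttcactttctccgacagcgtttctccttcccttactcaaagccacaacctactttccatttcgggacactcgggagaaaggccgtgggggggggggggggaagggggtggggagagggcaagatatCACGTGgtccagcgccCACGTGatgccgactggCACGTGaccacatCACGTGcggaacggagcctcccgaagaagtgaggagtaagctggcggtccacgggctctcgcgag
Mcoln1 (chr8:3500269-3500568, plus strand): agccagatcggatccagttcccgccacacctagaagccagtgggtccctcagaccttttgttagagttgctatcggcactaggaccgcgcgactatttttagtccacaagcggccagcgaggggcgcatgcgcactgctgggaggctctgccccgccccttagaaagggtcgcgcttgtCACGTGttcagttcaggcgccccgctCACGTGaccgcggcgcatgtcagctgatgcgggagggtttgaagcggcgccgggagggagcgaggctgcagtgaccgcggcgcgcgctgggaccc
Ctsa (chr2:164833523-164833822, plus strand): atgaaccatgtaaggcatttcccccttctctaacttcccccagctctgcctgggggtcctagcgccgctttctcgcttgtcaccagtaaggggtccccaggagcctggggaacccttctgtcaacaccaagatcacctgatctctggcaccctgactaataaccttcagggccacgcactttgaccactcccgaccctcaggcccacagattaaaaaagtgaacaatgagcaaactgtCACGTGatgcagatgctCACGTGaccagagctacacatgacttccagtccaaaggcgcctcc
Gla (chrX:134600956-134601255, minus strand): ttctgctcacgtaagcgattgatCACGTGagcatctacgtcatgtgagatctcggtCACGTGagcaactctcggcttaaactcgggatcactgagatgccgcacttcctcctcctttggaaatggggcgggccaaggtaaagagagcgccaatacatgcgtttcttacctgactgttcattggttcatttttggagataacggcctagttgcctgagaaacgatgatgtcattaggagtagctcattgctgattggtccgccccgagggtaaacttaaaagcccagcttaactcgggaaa

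The other 6 held 1 core each, printed with 15 bases on each side.
Glb1 (chr9:114401015-114401050, plus strand): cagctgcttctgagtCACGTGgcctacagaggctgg
Naglu (chr11:101070006-101070041, plus strand): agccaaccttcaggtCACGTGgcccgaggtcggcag
Gaa (chr11:119267808-119267843, plus strand): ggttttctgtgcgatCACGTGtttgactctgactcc
Sgsh (chr11:119355519-119355554, minus strand): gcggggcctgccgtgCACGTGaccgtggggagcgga
Lgmn (chr12:102439121-102439156, minus strand): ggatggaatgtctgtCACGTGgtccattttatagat
Arsa (chr15:89477420-89477455, minus strand): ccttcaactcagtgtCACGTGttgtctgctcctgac
The core was present for 29.4% of the 34 genes, for 8.09% of the 27025 genes that have a window in the table and for 11.2% of the 11591 tested genes that have one. The longer palindrome TCACGTGA, which contains the core, was in the windows of Gla, Ctsa and Mcoln1, which is 8.82% of the 34 genes, against 1.12% of all genes with a window and 2.01% of the tested genes. Of the 10 genes with a core, 4 were called higher (Gla, Lamp1, Naglu and Ctsa; median log2 fold change 0.37), and of the 24 without one 15 were higher (median 0.71). Over all tested genes with a window, 16.2% of the 1302 with a core and 14.4% of the 10289 without one were higher (medians 0.04 and 0.00). Lamp1 with 4 cores had a log2 fold change of 0.79, and Mcoln1 with 2 had 0.09. The difference between the 2 sets of genes was not tested, and a match or its absence in this window says nothing of binding.

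**Figure D2:**
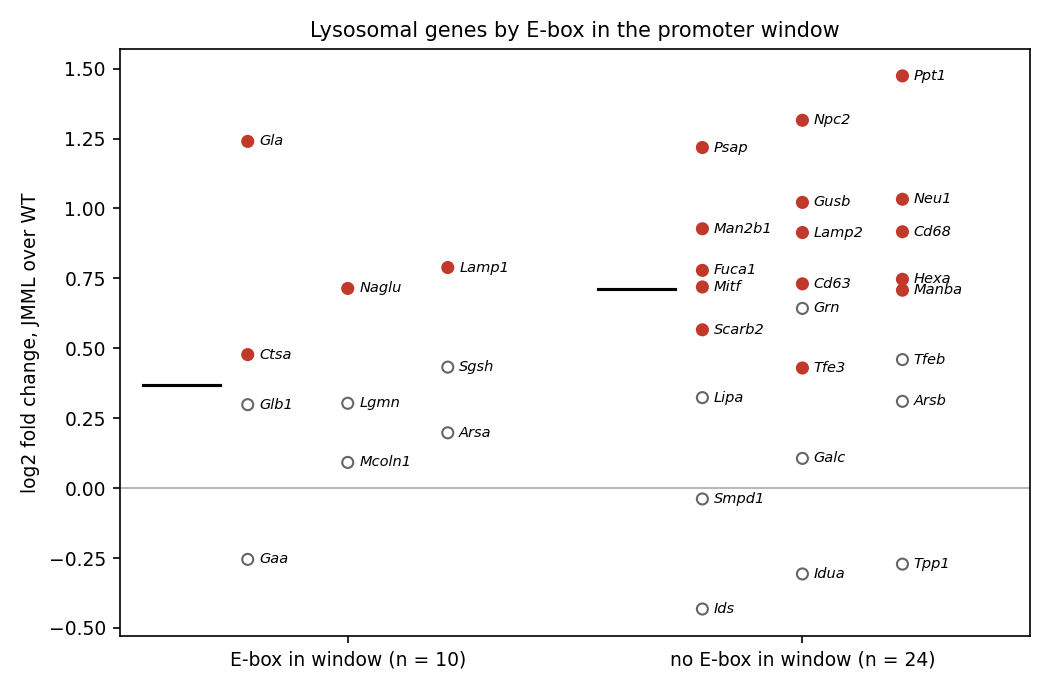
Log2 fold change in JMML over WT of the 34 genes with a promoter window, split by whether the window holds CACGTG; filled points were called higher and short black lines mark the medians, 0.37 with a core and 0.71 without. Both sides hold called and uncalled genes, and Ppt1, Npc2 and Psap, 3 of the 4 highest values, lie on the side without a core.

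Levels per length spanned a wide range. With CPM divided by the exon length in kilobases, the prosaposin gene Psap stood first, at 1011 CPM per kb in JMML and 435 CPM per kb in WT. Lamp1 followed at 236 CPM per kb in JMML and 136 CPM per kb in WT, then Hexa at 110 CPM per kb in JMML and 65.5 CPM per kb in WT. The lowest levels per length were those of Galc (1.35 CPM per kb in JMML, 1.26 CPM per kb in WT), Mcoln1 (2.16 CPM per kb in JMML, 2.03 CPM per kb in WT) and Mitf (2.39 CPM per kb in JMML, 1.45 CPM per kb in WT). Exon length here is the union of all annotated exons, so a gene with long rare isoforms, such as Galc with 14879 bases, reads low. Together the 37 genes took 0.626%, 0.776% and 0.665% of all counts in JMML replicates 1, 2 and 3, against 0.409%, 0.408% and 0.423% in WT replicates 1, 2 and 3. Psap alone took 0.231%, 0.296% and 0.256% in JMML, against 0.127%, 0.116% and 0.138% in WT.

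The glycosidases remove sugars one at a time from glycoproteins, glycolipids and glycosaminoglycans. In JMML 8 of 11 were higher, where 12.4% of all tested genes were higher, and the median log2 fold change was 0.75. Neu1, the sialidase (chromosome 17, 34931253 to 34935953, GRCm38), had 94.3, 96.5 and 97.4 CPM in JMML replicates 1, 2 and 3, against 48.8, 41.6 and 50.4 CPM in WT replicates 1, 2 and 3. The 3 JMML libraries lay close together and all above WT, and the log2 fold change was 1.03 ± 0.11 (SE; adjusted p = 0.00248). Gusb, the β-glucuronidase (chromosome 5, 129989011 to 130003049), had 207, 246 and 214 CPM in JMML, against 116, 108 and 105 CPM in WT (1.02 ± 0.11, adjusted p = 0.00276). Gla, the α-galactosidase whose loss causes Fabry disease in humans (chromosome X, 134588149 to 134601125), had 31.7, 35.5 and 29.4 CPM in JMML, against 12.5, 15.3 and 13.2 CPM in WT. Its log2 fold change of 1.24 ± 0.14 was the highest of the class (adjusted p = 0.00305), and no JMML library came near a WT library. Manba, the β-mannosidase, had 55.5, 56.8 and 55.7 CPM in JMML, against 33.5, 34.4 and 35.0 CPM in WT (0.71 ± 0.10, adjusted p = 0.00443). Of the enzymes that trim the rest of N-linked glycans, Man2b1, the α-mannosidase, averaged 526 ± 70.9 CPM in JMML and 276 ± 25.7 CPM in WT (SD, n = 3 each; log2 fold change 0.93), and Fuca1, the α-fucosidase, 72.5 ± 11.6 CPM in JMML and 42.3 ± 1.82 CPM in WT (0.78). Hexa, the α subunit of β-hexosaminidase, averaged 219 ± 9.33 CPM in JMML and 131 ± 10.6 CPM in WT (0.75), and Naglu, the α-N-acetylglucosaminidase, 21.8 ± 0.119 CPM in JMML and 13.3 ± 0.777 CPM in WT (0.71). Fuca1 lost its call in the 4 M libraries alone (0.53, adjusted p = 0.0801) and with the identifier letter as a covariate (0.50, adjusted p = 0.0756), and Naglu lost it in the M libraries (0.75, adjusted p = 0.0592).

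The other 3 glycosidases were not called. Glb1, the β-galactosidase, had 46.4, 59.4 and 49.8 CPM in JMML, against 43.9, 41.1 and 41.5 CPM in WT, so the groups did not overlap, but the difference of 0.30 ± 0.13 missed the threshold (adjusted p = 0.117). Gaa, the glycogen-degrading α-glucosidase, had 40.3, 52.8 and 41.6 CPM in JMML, against 61.9, 49.5 and 49.4 CPM in WT, with overlap (−0.25 ± 0.15, adjusted p = 0.250). Idua, the α-L-iduronidase, had 11.7, 8.38 and 12.0 CPM in JMML, against 13.1, 14.5 and 12.2 CPM in WT; all 3 JMML values lay below WT, but JMML replicate 3 and WT replicate 3 nearly met (−0.31 ± 0.18, adjusted p = 0.249). Neu1 and Glb1 proteins are known to form a complex with the protective protein encoded by Ctsa. The log2 ratio of Ctsa to Neu1 was 0.59 ± 0.25 in JMML and 1.16 ± 0.14 in WT (SD, n = 3 each; exact permutation test, two-sided, p = 0.1, the smallest that 3 against 3 allows; adjusted p = 0.22 over 11 pairs of genes). That of Ctsa to Glb1 was 1.49 ± 0.26 in JMML and 1.31 ± 0.09 in WT, with overlap (exact permutation test, p = 0.4, adjusted p = 0.55).

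**Figure D3:**
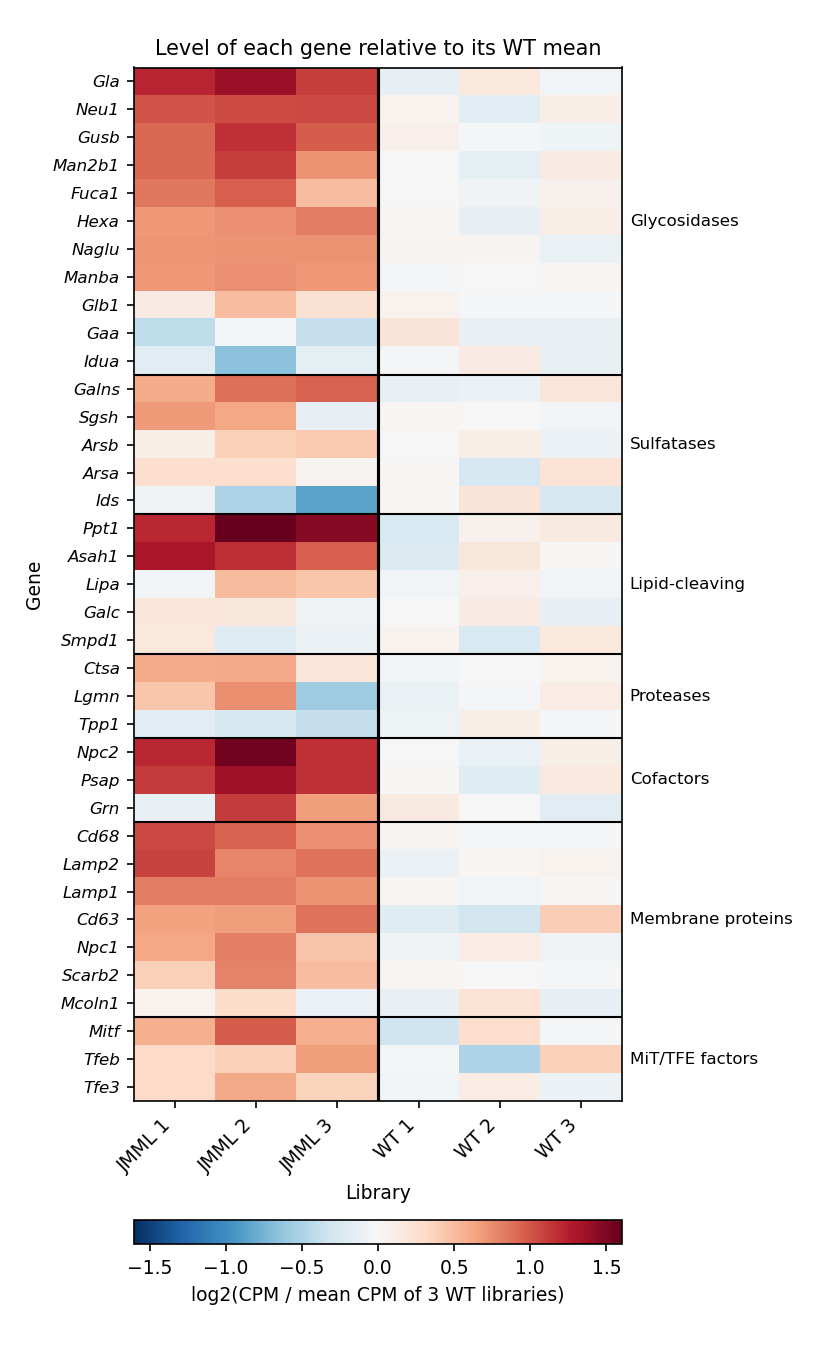
Heat map of the level of each of the 37 genes in each library, as log2 of CPM over the mean CPM of the 3 WT libraries; red is above and blue below the WT mean, JMML libraries stand left of WT, and black lines separate the classes. Most glycosidases, cofactors and membrane proteins are red in all 3 JMML libraries, while Lgmn and Sgsh differ in JMML replicate 3 and Grn in JMML replicate 1.

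Sulfatases and the sulfamidase remove sulfate from glycosaminoglycans and sulfatide. Of these 1 of 5 was higher, where 12.4% of all tested genes were higher, and the median log2 fold change was 0.31. A count of 1 among so few genes does not set the class apart from all genes. Galns, the N-acetylgalactosamine-6-sulfatase (chromosome 8, 122578242 to 122611463), had 103, 127 and 132 CPM in JMML, against 63.3, 64.2 and 78.0 CPM in WT (0.82 ± 0.14, adjusted p = 0.00767). Arsb, the arylsulfatase that acts on dermatan and chondroitin sulfate, had 101, 122 and 125 CPM in JMML, against 93.8, 99.4 and 87.3 CPM in WT. These groups lay close without overlap, and 0.31 ± 0.12 was not called (adjusted p = 0.0940); without JMML replicate 1 it was 0.42 (adjusted p = 0.0363), and with the trend on gene length removed it was 0.37 (adjusted p = 0.0484). Sgsh, the heparan N-sulfatase, had 34.4, 32.9 and 19.7 CPM in JMML, against 21.9, 21.6 and 20.9 CPM in WT. JMML replicate 3 lay below WT and the other two JMML libraries above it (0.43 ± 0.22, adjusted p = 0.174); without JMML replicate 3 the difference was 0.67 (adjusted p = 0.0189), and with the identifier letter as a covariate it was −0.13. Ids, the iduronate-2-sulfatase, had 29.0, 21.5 and 16.8 CPM in JMML, against 30.6, 34.9 and 25.3 CPM in WT, with overlap in JMML replicate 1 (−0.43 ± 0.22, adjusted p = 0.189). Arsa, the arylsulfatase of sulfatide, averaged 17.7 ± 1.59 CPM in JMML and 15.5 ± 2.61 CPM in WT (0.20 ± 0.17, adjusted p = 0.408).

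The enzymes that take heparan sulfate apart in turn did not move as one. Ids, which removes sulfate from iduronic acid, and Idua, which releases iduronic acid, had negative log2 fold changes of −0.43 and −0.31 and neither was called. Sgsh, which removes N-sulfate, had 0.43 and was not called. Naglu at 0.71 and Gusb at 1.02 were higher, as was Hgsnat (0.86), the acetyltransferase of the same route, which is not among the 37.

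Among 5 enzymes that cleave lipids or lipid anchors, 2 were higher, where 12.4% of all tested genes were higher. Ppt1, the palmitoyl-protein thioesterase that removes fatty acids from proteins (chromosome 4, 122836242 to 122859175), had 122, 174 and 145 CPM in JMML, against 44.8, 55.7 and 58.4 CPM in WT. Its 2.78-fold difference was the largest of the 37 genes (log2 1.47 ± 0.17, adjusted p = 0.00286), and the lowest JMML library was above the highest WT library. Asah1, the acid ceramidase (chromosome 8, 41340197 to 41374773), had 218, 200 and 170 CPM in JMML, against 75.6, 99.3 and 88.7 CPM in WT (1.16 ± 0.15, adjusted p = 0.00357). Lipa, the acid lipase that frees cholesterol from its esters, had 61.8, 90.5 and 87.0 CPM in JMML, against 61.9, 67.6 and 61.8 CPM in WT. JMML replicate 1 lay at the WT level, and 0.32 ± 0.16 was not called (adjusted p = 0.161); without that library it was 0.49 (adjusted p = 0.0219). Galc, the galactosylceramidase, had 21.3, 21.1 and 17.9 CPM in JMML, against 18.6, 20.4 and 17.0 CPM in WT (0.11 ± 0.14, adjusted p = 0.604). The value for Galc moved to 0.43 (adjusted p = 0.0468) with the trend on gene length removed. Smpd1, the acid sphingomyelinase, averaged 29.9 ± 4.02 CPM in JMML and 30.7 ± 4.41 CPM in WT (−0.04 ± 0.16, adjusted p = 0.876).

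Of the 3 proteases 1 was higher, where 12.4% of all tested genes were higher, so this count does not set the class apart. Ctsa, a serine carboxypeptidase (chromosome 2, 164832873 to 164841032), had 158, 159 and 120 CPM in JMML, against 101, 104 and 109 CPM in WT (0.48 ± 0.13, adjusted p = 0.0360). Its call ended without JMML replicate 1 (0.43, adjusted p = 0.0743), JMML replicate 2 (0.43, adjusted p = 0.0951), WT replicate 1 (0.50, adjusted p = 0.0749), WT replicate 2 (0.47, adjusted p = 0.106) or WT replicate 3 (0.54, adjusted p = 0.0589). It also ended with library totals alone (0.29), the replicate block (0.47), the letter (0.20) and in the M libraries (0.24). Tpp1, a tripeptidyl peptidase, had 60.1, 56.9 and 52.2 CPM in JMML, against 64.6, 72.8 and 67.0 CPM in WT. All 3 JMML values were below WT, and −0.27 ± 0.11 was not called (adjusted p = 0.0977) except with library totals alone (−0.46, adjusted p = 0.0272). Lgmn, the asparaginyl endopeptidase legumain, had 66.8, 82.5 and 33.2 CPM in JMML, against 46.0, 48.6 and 53.3 CPM in WT. JMML replicate 3 was the lowest of the 6 libraries and the other two JMML libraries the highest (0.30 ± 0.30, adjusted p = 0.475). Without JMML replicate 3 the log2 fold change of Lgmn was 0.62 (adjusted p = 0.0340), whereas it was −0.57 with the letter as a covariate and −0.53 in the M libraries, where JMML replicate 3 is the 1 leukemic library that sets it.

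**Figure D4:**
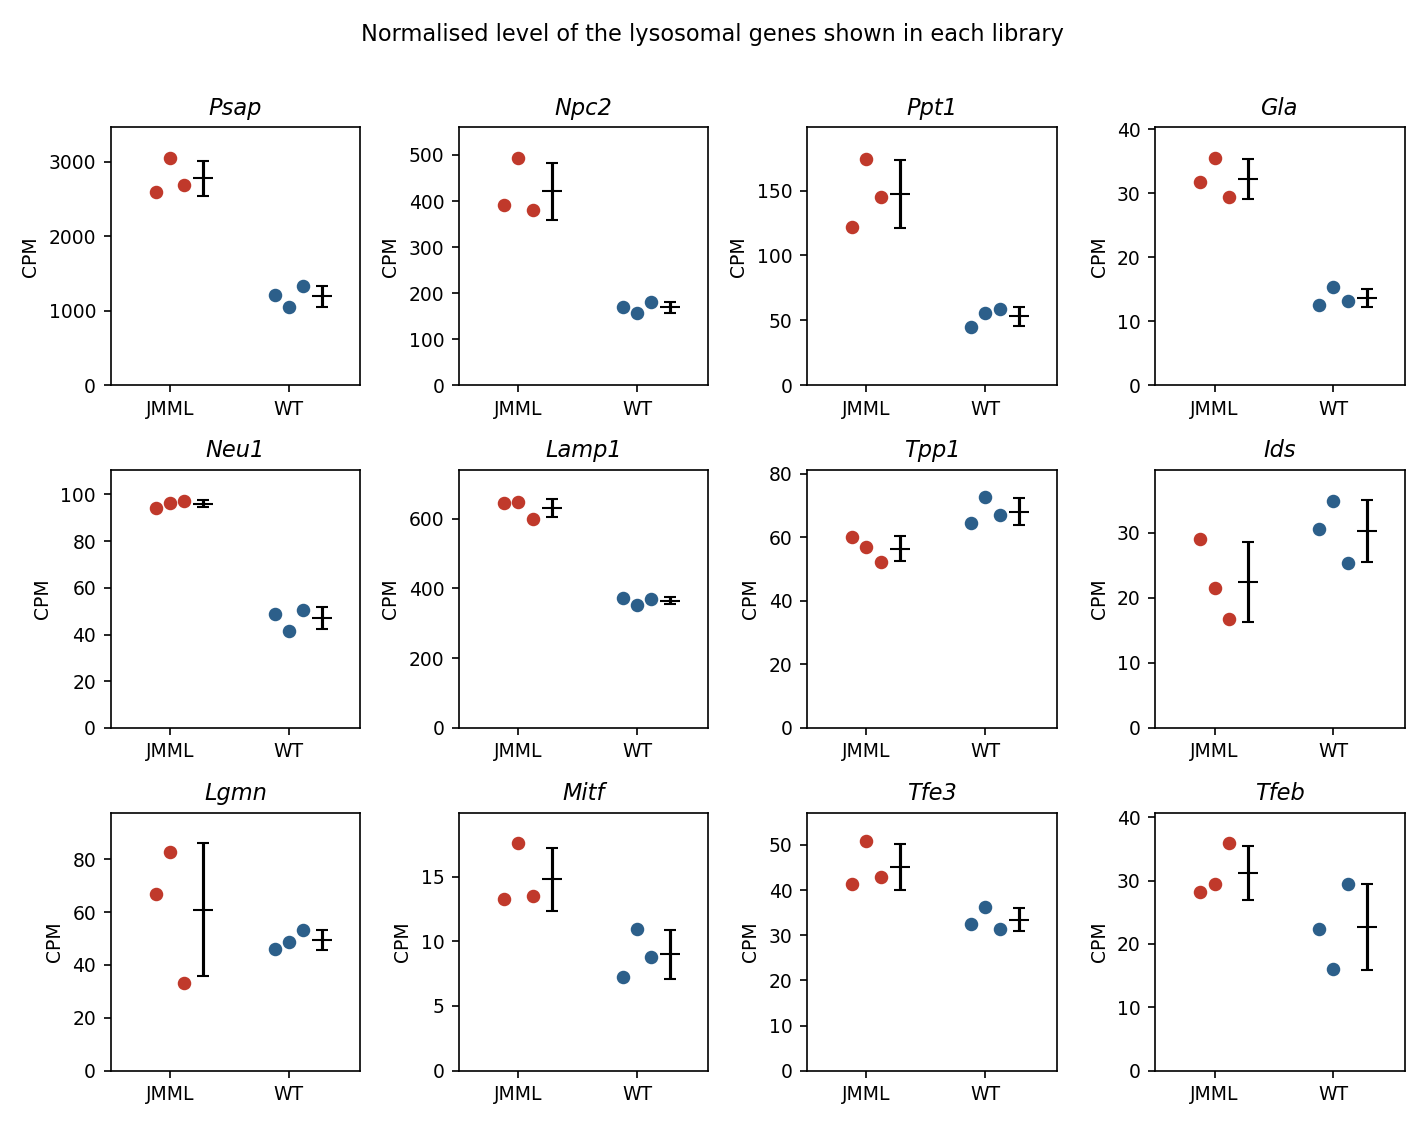
Normalised level (CPM, linear axis from 0) of 12 genes in each of 3 JMML libraries (red, left) and 3 WT libraries (blue, right), with the mean and SD in black. Psap, Npc2, Ppt1, Gla, Neu1 and Lamp1 separate the groups, Tpp1 lies lower in JMML, and Lgmn spreads from 33.2 to 82.5 CPM within JMML.

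Of the luminal cofactor and transport proteins, 2 of 3 were higher, where 12.4% of all tested genes were higher. Psap, the precursor of the saposins that help enzymes reach membrane lipids (chromosome 10, 60277627 to 60302597), had 2593, 3047 and 2684 CPM in JMML, against 1204, 1045 and 1329 CPM in WT. The groups lay far apart, at 2775 ± 240 CPM in JMML and 1193 ± 142 CPM in WT (SD, n = 3 each; log2 fold change 1.22 ± 0.15, adjusted p = 0.00359). Npc2, the luminal cholesterol carrier (chromosome 12, 84754562 to 84773152), had 390, 493 and 381 CPM in JMML, against 170, 157 and 180 CPM in WT (1.32 ± 0.14, adjusted p = 0.00255). Npc2 hands cholesterol to the membrane protein encoded by Npc1, and the log2 ratio of Npc2 to Npc1 was 2.41 ± 0.08 in JMML and 1.73 ± 0.20 in WT (SD, n = 3 each; exact permutation test, two-sided, p = 0.1; adjusted p = 0.22). Grn, progranulin, whose fragments act inside the lysosome, had 125, 295 and 216 CPM in JMML, against 150, 136 and 121 CPM in WT. JMML replicate 1 lay within the WT range and the other two JMML libraries above it (0.64 ± 0.28, adjusted p = 0.131); without JMML replicate 1 the value was 0.93 (adjusted p = 0.0158).

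Of 7 membrane proteins 6 were higher, where 12.4% of all tested genes were higher, and the median log2 fold change was 0.73. Lamp1 and Lamp2 encode the main glycoproteins that line the inner face of the lysosomal membrane. Lamp1 (chromosome 8, 13159161 to 13175338) had 645, 646 and 600 CPM in JMML, against 371, 353 and 370 CPM in WT (0.79 ± 0.11, adjusted p = 0.00443). Lamp2 (chromosome X, 38401357 to 38456454) had 443, 359 and 383 CPM in JMML, against 197, 215 and 217 CPM in WT (0.91 ± 0.12, adjusted p = 0.00422). In both genes each JMML library exceeded each WT library by more than the spread within either group. Cd68, a glycoprotein of macrophage and monocyte lysosomes, had 87.0, 81.1 and 69.7 CPM in JMML, against 43.3, 41.2 and 41.5 CPM in WT (0.92 ± 0.12, adjusted p = 0.00357). Npc1, the cholesterol exporter, had 78.1, 89.1 and 69.9 CPM in JMML, against 48.9, 55.2 and 48.8 CPM in WT (0.63 ± 0.12, adjusted p = 0.0119). Npc1 was not called with library totals alone (0.45, adjusted p = 0.0563), with the letter (0.46, adjusted p = 0.111) or in the M libraries (0.49, adjusted p = 0.0940).

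Cd63, a tetraspanin of lysosomes and granules, had 74.7, 76.3 and 87.6 CPM in JMML, against 41.8, 39.2 and 62.8 CPM in WT, without overlap (0.73 ± 0.19, adjusted p = 0.0298). Its call ended without JMML replicate 2 (0.78), JMML replicate 3 (0.68), WT replicate 1 (0.69) or WT replicate 2 (0.60), with library totals alone (0.55), with the letter (0.87) and in the M libraries (0.91), at adjusted p values between 0.0610 and 0.114. Scarb2, the receptor LIMP-2 that brings β-glucocerebrosidase to the lysosome, averaged 158 ± 24.6 CPM in JMML and 107 ± 2.31 CPM in WT (SD, n = 3 each; 0.57 ± 0.13, adjusted p = 0.0197). Its call ended without WT replicate 2 (0.56) or WT replicate 3 (0.60), with library totals alone (0.39), the replicate block (0.56), the letter (0.49) and in the M libraries (0.53), at adjusted p values between 0.0523 and 0.131. Mcoln1, the calcium channel TRPML1, had 15.9, 18.8 and 14.3 CPM in JMML, against 14.0, 17.9 and 14.0 CPM in WT. These ranges overlap almost fully (0.09 ± 0.17, adjusted p = 0.717), and Mcoln1 was the 1 membrane protein of the 7 without a call. Over the class, the count of 6 became 3 in the M libraries, with the letter and under library totals alone.

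Of the 3 MiT/TFE factors 2 were higher, where 12.4% of all tested genes were higher. Both calls lay close to the threshold of 0.05, and they ended in 10 (Tfe3) and 11 (Mitf) of 17 other settings. Mitf (chromosome 6, 97807052 to 98021349) had 13.3, 17.6 and 13.5 CPM in JMML, against 7.23, 11.0 and 8.77 CPM in WT (0.72 ± 0.21, adjusted p = 0.0402). Tfe3 (chromosome X, 7762560 to 7775202) had 41.4, 50.9 and 42.8 CPM in JMML, against 32.6, 36.3 and 31.4 CPM in WT (0.43 ± 0.13, adjusted p = 0.0471). In both the groups did not overlap, but the call of Mitf ended without any 1 of the 6 libraries (0.81, 0.59 and 0.81 without JMML replicates 1, 2 and 3; 0.64, 0.88 and 0.75 without WT replicates 1, 2 and 3; adjusted p between 0.0512 and 0.106). That of Tfe3 ended without each library but JMML replicate 1 (0.35 and 0.49 without JMML replicates 2 and 3; 0.46, 0.49 and 0.43 without WT replicates 1, 2 and 3; adjusted p between 0.0678 and 0.119). Neither was called with a filter of 50 counts in 3 libraries, library totals alone, the letter or the M libraries. Mitf was not called after thinning to equal totals, nor Tfe3 with the replicate block. Tfeb (chromosome 17, 47737030 to 47792419) had 28.1, 29.4 and 36.0 CPM in JMML, against 22.4, 16.1 and 29.5 CPM in WT, where WT replicate 3 lay above 2 JMML libraries (0.46 ± 0.23, adjusted p = 0.175). Per length, Tfeb at 5.50 CPM per kb in JMML and 4.00 CPM per kb in WT and Tfe3 at 4.86 CPM per kb in JMML and 3.61 CPM per kb in WT were close to each other and above Mitf. These factors are known to be controlled largely by where the protein sits in the cell, which transcript counts do not show. Counts per gene also do not separate the isoforms of Mitf, which start at several promoters.

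Tfec, the fourth gene of the family and not among the 37, had 48.1, 65.7 and 60.6 CPM in JMML, against 28.1, 24.1 and 25.6 CPM in WT (1.17 ± 0.15, adjusted p = 0.00370). Its lowest JMML library lay above its highest WT library. In the list of Tfec and genes that hold MiT/TFE proteins at the lysosome or release them, 6 of 16 were higher and 3 lower. Among all tested genes, 12.4% were higher and 13.8% lower. Lamtor1 and Lamtor5, parts of the Ragulator scaffold that anchors mTORC1 at the lysosome, averaged 86.2 ± 4.20 and 41.7 ± 4.77 CPM in JMML, against 46.9 ± 7.19 and 25.0 ± 1.30 CPM in WT (SD, n = 3 each; 0.88 and 0.74). The call of Lamtor5 ended in the M libraries (0.71) and with the letter (0.67). The 3 lower genes, named after their values were seen, were Rptor, the mTORC1 subunit raptor (−0.45 ± 0.11), Ppp3cb, a catalytic subunit of the phosphatase calcineurin (−0.59 ± 0.12), and the Rag GTPase gene Rragd (−1.71 ± 0.43), itself low at 0.453 CPM in JMML and 1.49 CPM in WT. The 6 higher became 2 with the letter and in the M libraries, and the 3 lower became 0 in both, 0 with the replicate block and without WT replicate 2, and 1 with the length trend removed and without JMML replicate 2, JMML replicate 3 or WT replicate 1.

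Of the genes, 4 lie on the X chromosome, where the female JMML replicates 1 and 2 differ from the other libraries in sex. JMML replicate 3, which carries Y-linked transcripts like the WT libraries, had 29.4 CPM of Gla against 12.5 to 15.3 CPM in WT, 383 CPM of Lamp2 against 197 to 217 CPM in WT, 42.8 CPM of Tfe3 against 31.4 to 36.3 CPM in WT, and 16.8 CPM of Ids against 25.3 to 34.9 CPM in WT. In JMML replicate 3, Gla, Lamp2 and Tfe3 lay above the WT range and Ids below it; in JMML replicate 1, Ids lay within the WT range. In the M libraries alone, Gla (1.15, adjusted p = 0.0232) and Lamp2 (0.91, adjusted p = 0.0222) were called, and Tfe3 (0.39, adjusted p = 0.186) and Ids (−0.81, adjusted p = 0.0828) were not. The M libraries hold 1 JMML library, JMML replicate 3.

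Other genes of the pathway were read from 7 lists, which hold 95 genes outside the 37, 94 of them tested. Of these, 48 were higher and 9 lower, with a median log2 fold change of 0.58. Over all tested genes, 12.4% were higher and 13.8% lower, with a median of −0.02. The same shares stand beside the counts of each list. The proton pump, which acidifies the lumen, had 15 of 17 genes higher and 1 lower. Atp6v1a, the catalytic subunit, had 258, 269 and 305 CPM in JMML, against 136, 133 and 142 CPM in WT (1.02 ± 0.11, adjusted p = 0.00269). Atp6ap2 averaged 206 ± 5.18 CPM in JMML and 116 ± 5.40 CPM in WT (0.82), and Atp6v1e1 128 ± 4.26 CPM in JMML and 77.0 ± 3.25 CPM in WT (0.74). The 1 lower gene, named after its value was seen, was Atp6v0a1 (30.8 ± 3.90 CPM in JMML, 49.9 ± 4.53 CPM in WT; −0.70 ± 0.14), while Tcirg1, which encodes another form of the same subunit, was higher (0.94 ± 0.12). The 15 higher became 10 with the letter.

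Further hydrolases and their cofactors had 8 of 14 higher and 0 lower. Gm2a, the activator protein for ganglioside GM2, had 337, 326 and 283 CPM in JMML, against 124, 135 and 127 CPM in WT (1.30 ± 0.11, adjusted p = 0.00191). Each JMML library of Gm2a lay far above each WT library. The 8 higher became 5 with the letter and in the M libraries. Cathepsins, the main lysosomal proteases, had 5 of 10 higher and 1 lower, with Ctss at 1.69 ± 0.24, Ctsc at 1.42 ± 0.14 and Ctsz at 1.15 ± 0.13. The 1 lower cathepsin was Ctsf (−1.28 ± 0.39, adjusted p = 0.0469), named after its value was seen, and its call ended with the length trend removed, with the replicate block, and without JMML replicate 2, JMML replicate 3 or any 1 WT replicate.

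Further membrane proteins had 7 of 18 tested higher and 1 lower, among them Laptm5 (672 ± 84.0 CPM in JMML, 388 ± 25.2 CPM in WT; 0.79 ± 0.14), Ostm1, the partner of the chloride transporter ClC-7 (0.74 ± 0.12), and Tmem192 (0.85 ± 0.14). Ostm1 (0.58, adjusted p = 0.0520) and Tmem192 (0.79, adjusted p = 0.0512) lost their calls with the letter. The 7 higher became 3 in the M libraries and 2 with the letter. The 1 lower was the amino acid sensor gene Slc38a9 (−0.68 ± 0.18), whose call ended in 8 of the other settings, among them those without JMML replicate 2, JMML replicate 3, WT replicate 2 or WT replicate 3. Genes that sort new enzymes to the lysosome had 3 of 9 higher and 1 lower. Sort1, sortilin, averaged 466 ± 55.9 CPM in JMML and 246 ± 10.3 CPM in WT (0.92 ± 0.13), and M6pr, a mannose 6-phosphate receptor, 283 ± 15.5 CPM in JMML and 180 ± 10.6 CPM in WT (0.66 ± 0.11). Nagpa, the uncovering enzyme that exposes the mannose 6-phosphate tag, was at 1.20 ± 0.29, and was not called in the M libraries (1.05), under the letter covariate (1.01) or the replicate block (1.15), or without WT replicate 2 (1.07) or WT replicate 3 (1.21). The 1 lower was Gga3, a sorting adaptor (−0.66 ± 0.16), whose call ended without JMML replicate 1, JMML replicate 3, WT replicate 1 or WT replicate 2, with the letter and in the M libraries.

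Autophagy genes that MiT/TFE factors are known to bind had 4 of 10 higher and 2 lower. Uvrag (98.4 ± 8.84 CPM in JMML, 59.0 ± 6.14 CPM in WT; 0.74 ± 0.12), Vps11 (84.8 ± 13.5 CPM in JMML, 51.5 ± 1.20 CPM in WT; 0.72 ± 0.13) and Atg9b (5.80 ± 0.609 CPM in JMML, 2.08 ± 0.376 CPM in WT; 1.48 ± 0.23) were higher. Uvrag was not called in the M libraries (0.64) or with the letter (0.60), nor Vps11 with the letter (0.60). The 2 lower genes were the kinase gene Ulk1 (−0.73 ± 0.17) and Gabarapl1 (−0.48 ± 0.13), both named after their values were seen. The 4 higher became 2 in the M libraries and 1 with the letter. The 2 lower became 0 in both and without JMML replicate 1, JMML replicate 3, WT replicate 1 or WT replicate 2, and 1 without JMML replicate 2 or WT replicate 3, with the block and with no filter.

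**Figure D5:**
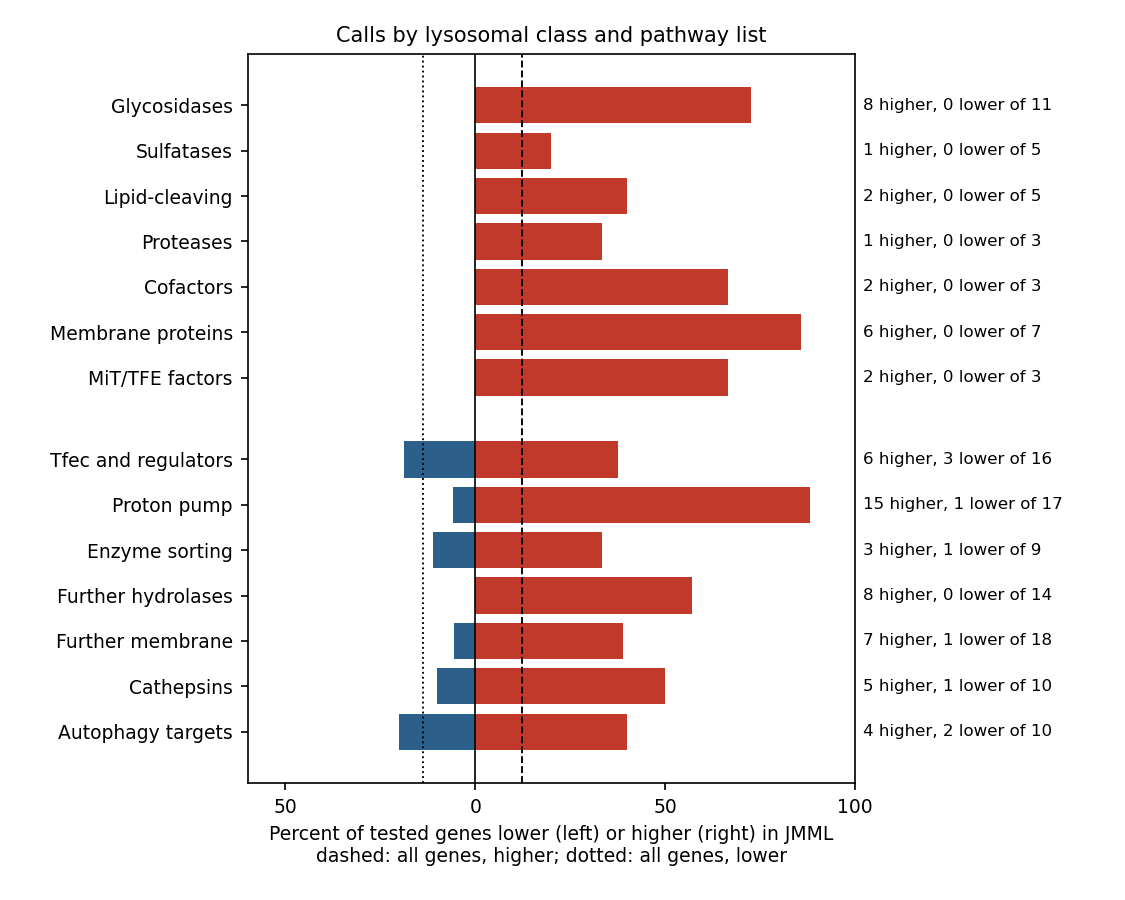
Percent of tested genes called higher (red, right) or lower (blue, left) in JMML for the 7 classes of the 37 genes and, below the gap, 7 other lysosome pathway lists; the dashed and dotted lines mark 12.4% higher and 13.8% lower among all tested genes. Membrane proteins, with 6 of 7 higher, and the proton pump, with 15 of 17, have the longest red bars, and the 7 classes have no blue bar.

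Some of the genes share exon bases with a neighbour, and the strand setting of the counts is not given in the sources used here. Ppt1 shares 129 bases (3.51% of its exon length) with Cap1 on the opposite strand, which had 47794 to 62946 counts in JMML and 15288 to 24728 counts in WT. Npc1 shares 511 bases (4.52%) with Rmc1, which had 3282 to 3868 counts in JMML and 1905 to 2365 counts in WT. Glb1 shares 165 bases (5.49%) with Tmppe on the same strand, which had 1817 to 3008 counts in JMML and 1532 to 1952 counts in WT. Idua shares 124 bases (2.95%) with Dgkq, which had 1139 to 1621 counts in JMML and 828 to 1086 counts in WT, and 141 bases (3.35%) with Slc26a1, which had 208 to 887 counts in JMML and 668 to 888 counts in WT. Reads of the opposite-strand pairs cannot be told apart without the strand, and those of Glb1 and Tmppe in their shared bases not even with it, so the values of the 4 genes are less certain than their standard errors show. The opposite-strand partners of Hexa, Sgsh, Arsa, Arsb, Ctsa, Grn and Lamp1 that the tables hold had at most 644 counts in any library.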

How the data were processed

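The authors deposited raw counts per Ensembl gene, with 1 table for each library and no normalization. The build GRCm38 is named in the submitters' processing notes, along with STAR 2.5.3a, bcl2fastq 2.18.0.12, DESeq2 1.22.2, StringTie 1.3.3b, R 3.5.0 and Picard 2.0.1, in no stated role. Libraries were made with a stranded kit for total RNA, per the labels' protocols. Which tool counted, and with which strand setting, is not given in the sources used here. Of the counts from 1 to 20, 51.6% to 58.8% were even, so how mates were counted is open, and counting error may be larger than the counts imply.

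Symbols, positions and exon lengths came from GENCODE vM21, which held 45229 of the 46078 identifiers, and promoter windows from RefSeq. Groups came from the titles. The quasi-likelihood test of edgeR 4.0.16 (R 4.3.3) was run after filterByExpr and TMM scaling, on 18097 genes, and p-values were adjusted by Benjamini-Hochberg. A standard error was obtained as the size of the log2 fold change over the square root of F. Chi-square per degree of freedom between libraries was at least 115, so all 6 were kept. The test was checked on simulated data with the same dispersion for each gene. Large changes were mostly recovered there and small ones mostly were not. Since real genes differ in their spread, this recovery does not carry over to genes that spread less or more than that dispersion.

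Genes with values per library were, by rule, the 3 factors and up to 4 genes per class with the smallest p, and of each other list the 3 with the smallest p and Tfec; the other genes were added after their values were seen. Some genes meeting this rule are not reported here. The members and lists were chosen with earlier results of these data known. Other settings were scaling by DESeq2 size factors or by totals only, tests by DESeq2 1.42.0 or limma-voom (limma 3.58.1), no filter or 50 counts in 3 libraries, a replicate block, the identifier letter, the M libraries only, a loess (span 0.5) on gene length, thinning to equal totals, and each library left out.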

Additional observations from a re-analysis of the deposited data

How the results depend on the processing

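The count of lysosomal genes called higher, 22, was 22 with DESeq2, limma-voom, DESeq2 size factors and no filter, 24 with the length trend removed, 21 after thinning, 20 with the 50-count filter, 19 with the replicate block, 16 with library totals alone, 15 with the identifier letter and 14 in the M libraries, and 17 to 23 with 1 library left out. The count lower was 0 in each setting, leave-one-out included (0 to 0), except library totals alone, which called 1 (Tpp1). Over all genes, 2245 higher and 2492 lower became 1012 and 1298 in the M libraries, 969 and 1250 with the letter, 1280 and 3460 with library totals, 1358 and 1451 with the replicate block, and 1050 to 1955 higher and 1153 to 2048 lower with 1 library left out; the lowest values came without WT replicate 2. With library totals alone 27.0% of calls were higher in place of 47.4%, the median of all genes was −0.21 in place of −0.02, and that of the 37 genes 0.47 in place of 0.64. Over the 37 genes and 17 settings, 572 of the values kept their side of the threshold, 49 lost a call, 8 gained one and 0 called values changed sign. The cause of these changes was not tested. Same-numbered libraries did not deviate together (correlations of −0.199, 0.0453 and −0.143 over 18097 genes). Of the 6 libraries, only JMML replicate 2 correlated best with its own number. With so few libraries a group, these correlations cannot tell whether the samples were paired. In the M libraries and with the letter, the leukemic side rests on JMML replicate 3 for its comparison with WT.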

Other observations

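The E-box core CACGTG was also counted in the promoter windows of the other lysosome pathway lists, as a description with no test. Of 73 genes with a window, 19 held the core (26.0%) and 10 held the longer palindrome TCACGTGA (13.7%), against 8.09% and 1.12% of all 27025 genes with a window and 11.2% and 2.01% of the 11591 tested genes with one. In the proton pump list 4 of 12 genes with a window held the core, namely Atp6v0b, Atp6v0d1, Atp6v0e and Atp6v1a, and all 4 were called higher in JMML, as were 7 of the 8 without it. In the list of Tfec and regulators the 4 genes with the core were Fnip1, Rragc, Lamtor1 and Lamtor4, and all 4 were called higher, against 2 of 11 without it. In the cathepsin list the genes with the core were Ctsd, Ctsf and Ctsl, and 0 of these 3 were called higher, against 4 of 5 without it. Over all 7 lists, 12 of 19 genes with the core and 21 of 54 without it were called higher. Among the 37 genes the counts were 4 of 10 with it and 15 of 24 without it, and among all tested genes with a window 16.2% with it and 14.4% without it were called higher. The differences between these shares were not tested.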
